A study of Solanum chacoense with 24 samples.

Results

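The gene models described here were read in leaves of both parents of a potato-relative cross and were at a small fraction of that level in at least 1 of its F2 lines. They are 100 of the 37740 gene models in the deposited count table. They were chosen from the measured values: counts were divided by the library total and multiplied by 1000000 (CPM, counts per 1000000), averaged over the 3 plants of a line, and each model was given a score, the log2 of the lower parent's mean plus 0.5 CPM over the lowest F2 line's mean plus 0.5 CPM. A model could be chosen where its highest F2 line was at or above the lower parent, which held for 36855 models, and the 100 highest scores were taken. The score, the lowest line and the distance of that line from the parents are therefore properties of the choice and are given as a description, with no test.

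The cross was made within Solanum chacoense, a wild tuber-bearing relative of potato. The parent USDA8380-1 (80-1) is resistant to the Colorado potato beetle, a leaf-eating insect, and the parent M6 is an inbred, susceptible line. Of their F2 population, 3 lines with extreme resistance in the field (EE501F2_089, EE501F2_516 and EE501F2_641) and 3 with extreme susceptibility (EE501F2_093, EE501F2_099 and EE501F2_500) were used. Each line is 1 individual carried as in vitro plants, of which 3 were grown in a chamber at 20 °C with 16 h of light and 70% humidity and sampled as leaflets at 16 weeks, so that each class is represented by 3 genotypes and each parent by 1. No plant is labelled as infested or treated.

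An F2 individual carries a new combination of its grandparents' alleles, and the RNA level of a gene can depend on its own regulatory sequence as well as on factors encoded elsewhere in the genome. Where such alleles are recombined, a progeny line can fall outside the range of its parents, which is called transgressive segregation. In S. chacoense, beetle resistance is known for its link to leptines, acetylated steroidal glycoalkaloids made in the leaf. The identifiers in the table are not paired with gene names in the sources used here, so no function is given for any model, and the leaf label could not be set against marker genes.

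The 24 libraries held total counts of 23610756 to 77078776, and EE501F2_093 was the deepest line with 60713423 to 77078776. A count of 0 allows up to 3 counts, which was 0.0389 to 0.127 CPM per library and covers counting error only. Libraries of 2 lines stood apart. The plants of EE501F2_641 lay at least 4-fold apart in 4.19% of the 15352 models that could be chosen and had a lower parent of at least 1 CPM, called all models below, against 0.0782% to 1.41% in the other F2 lines. EE501F2_516 was at least 4-fold below the lower parent in 1.44% of the same models, against 0.0977% to 0.423% in the other F2 lines. For plants within a line and for lines against the lower parent, 4-fold is taken after 0.5 CPM is added to both sides. Against a lower parent near 1 CPM it cannot be reached.

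The chosen models had lower-parent means of 3.76 to 1332 CPM (median 21.0) and lowest-line means of 0 to 117 CPM (median 1.55). The scores ran from 2.72, a 6.57-fold shortfall once 0.5 CPM is added to both means, to 6.63, with a median of 3.15. The median over the 15352 models with a lower parent of at least 1 CPM was 0.16. Scores were continuous at the edge of the list. The last model inside, g7468 on chromosome 8, scored 2.716, with 27.2 CPM in M6 and 3.71 CPM in EE501F2_516, and the one before it, g5210 on chromosome 6, scored 2.74, with 498 CPM in 80-1 and 74.1 CPM in EE501F2_516. Just outside, g35149 (5.34 CPM in M6 and 0.393 CPM in EE501F2_641) and g11876 (2.76 CPM in 80-1 and 0 in EE501F2_099) both scored 2.707. In all, 332 models scored 2 or more, so the list is the upper end of a longer series.

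The line EE501F2_516 held the lowest level of most of these models. It was the lowest line for 66 of the 100, followed by EE501F2_500 and EE501F2_641 with 9 each, EE501F2_089 with 7, EE501F2_099 with 6 and EE501F2_093 with 3. A model was called low in a line at a score of 2 or more against the lower parent, 4-fold after adding 0.5 CPM to both. By this, 76 models were low in EE501F2_516, where 1.44% of all models were low. The same count was 29 in EE501F2_089 (0.423% of all models), 17 in EE501F2_500 (0.313%), 12 in EE501F2_641 (0.306%), 7 in EE501F2_099 (0.143%) and 3 in EE501F2_093 (0.0977%). The rule used these levels, so the counts say how the list is made up and not that it differs from other models.

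**Figure D1:**
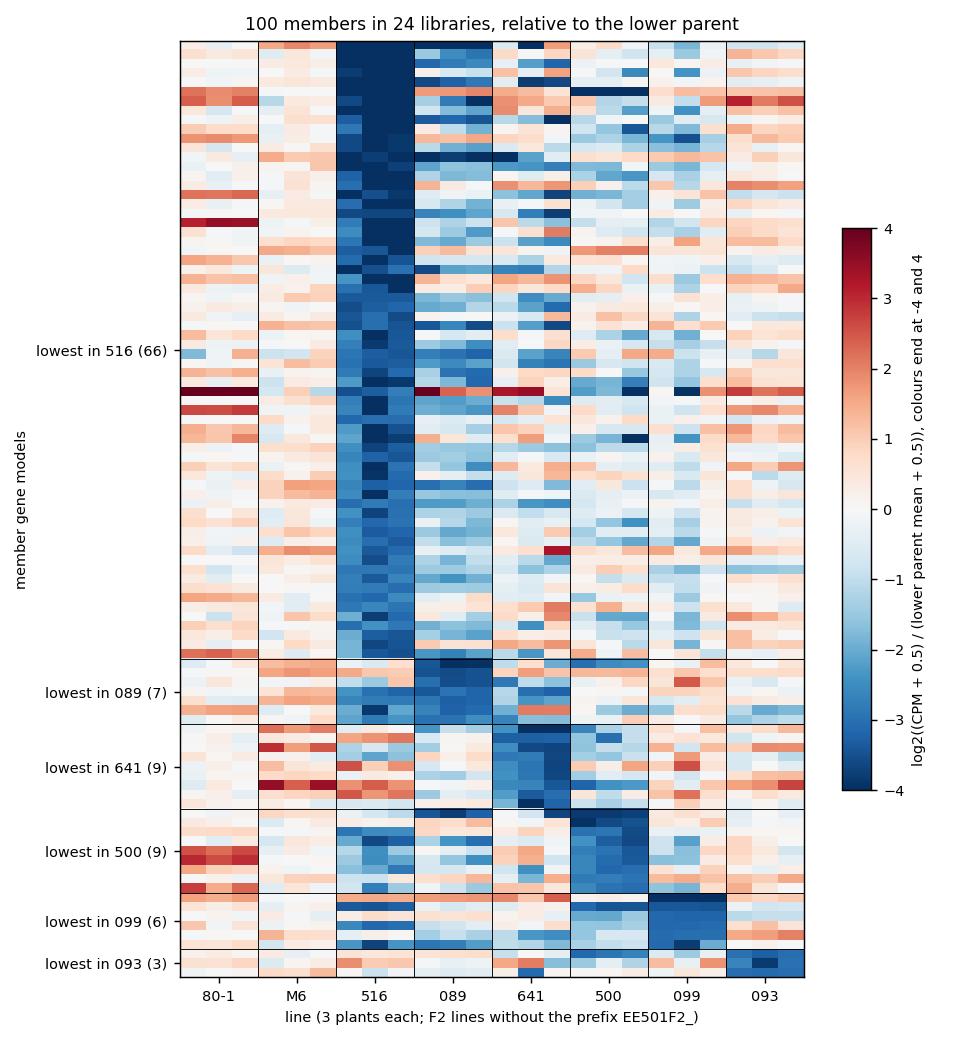
Level of each of the 100 gene models (rows, grouped by lowest F2 line) in each of the 24 libraries (columns, 3 plants per line), as log2 of CPM plus 0.5 over the lower parent's mean plus 0.5; blue is below the lower parent, red above, and colours end at -4 and 4. The dark block of the 66 models lowest in EE501F2_516 continues in a paler form in EE501F2_089, while EE501F2_093 is mostly at or above the parental level.

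Of the 100 models, 60 were low in 1 line, 36 in 2 lines and 4 in 3 lines, and 0 were low in 4 or more. At a score of 1 or more (2-fold with 0.5 CPM added), 23 were low in 1 line. The rule itself kept at least 1 F2 line at or above the lower parent. Neither these counts nor the patterns below were taken over all models, so they only describe the list. EE501F2_516 alone was low for 40 models and EE501F2_089 with EE501F2_516 for 22, which made these the leading patterns of 17 seen. EE501F2_641 alone was low for 8 models, EE501F2_500 with EE501F2_516 for 6, and EE501F2_500 alone for 5. Low lines were all resistant for 75 models (1.67% of all models), all susceptible for 11 (0.319%) and of both classes for 14 (0.169%). The rule used these levels and 76 models were low in EE501F2_516, so the split follows in part from the choice. With EE501F2_516 left aside the counts by class were 35, 20 and 5, with 40 low in no other line. With EE501F2_641 left aside they were 67, 12 and 13. With a line left aside, shares over all models were not taken, so nothing is read from these counts.

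EE501F2_089 stood closest to EE501F2_516 and EE501F2_093 farthest from it. Over the 66 models lowest in EE501F2_516, the median score was 1.48 in EE501F2_089, with 19 of them low there, and at most 0.19 in the other F2 lines, with at most 4 low. EE501F2_093 was the highest F2 line for 29 of these 66 and at or above the lower parent for 46. Over the whole list, the highest F2 line was above both parents for 47 models, and it was EE501F2_093 for 38, EE501F2_099 for 21, EE501F2_641 for 16, EE501F2_500 for 13, EE501F2_089 for 8 and EE501F2_516 for 4. For these 47 models the F2 lines thus spanned from far below to above the parental range.

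The widest gap belonged to g4456 (chromosome 6, 35443808 to 35447464, minus strand, 6 exons; coordinates as the table gives them, build not given in the sources used here). Its plants read 168, 150 and 175 CPM in 80-1 and 53.0, 55.3 and 55.8 CPM in M6, and 0.0300, 0.147 and 0 CPM in EE501F2_099. Plants of the other 5 F2 lines read 60.3 to 291 CPM. EE501F2_099 was the sole line without this transcript at more than trace level, with 6 counts over its 3 plants. The ratio of M6 to EE501F2_099 was 987 (95% counting interval 453 to 2692), and no plant of another line came near.

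In EE501F2_099 a second model, g35100 (chromosome 4, 35265417 to 35266817, minus strand, a single exon), was close to the counting floor, and here it shared that level with lines EE501F2_500 and EE501F2_516. The parents read 7.08 ± 0.914 CPM in 80-1 and 5.01 ± 1.09 CPM in M6 (SD, n = 3), and EE501F2_641 read 5.11 ± 1.47 CPM. The 9 plants of the 3 low lines lay between 0 and 0.120 CPM, with totals of 2, 3 and 3 counts per line. EE501F2_089 and EE501F2_093 fell between, at 3.47 ± 0.592 and 3.28 ± 0.751 CPM. The lines thus split into 3 at or near 0, of both resistance classes, and 3 at 3.28 to 5.11 CPM, and the ratio of M6 to EE501F2_099 was 275 (95% counting interval 75.8 to 2278).

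Of the models lowest in EE501F2_516, g2394 (chromosome 2, 28304006 to 28306077, minus strand) had the highest score. Its plants read 145, 97.0 and 122 CPM in 80-1 and 349, 456 and 388 CPM in M6. They read 2.05, 0.665 and 2.53 CPM in EE501F2_516 and 1.70, 1.65 and 1.94 CPM in EE501F2_089. These 2 resistant lines overlapped each other, 69.1-fold below 80-1 in EE501F2_516, and lay under the 33.7 to 200 CPM of the 9 susceptible F2 plants. The third resistant line, EE501F2_641, did not behave as 1 group, since its plants read 80.1, 2.67 and 385 CPM.

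The second, g25538 (chromosome 12, 2103228 to 2104973, plus strand), was among the most highly read of these models. The parents read 2081, 1706 and 1923 CPM in 80-1 and 949, 1811 and 1235 CPM in M6. EE501F2_516 read 74.7, 22.2 and 27.6 CPM, 32.1-fold below M6 by its mean, and EE501F2_089 read 476, 234 and 174 CPM. EE501F2_516 lay below every other plant in the series and EE501F2_089 between it and the rest, where only the lowest plant of EE501F2_099, at 471 CPM, reached into the range of EE501F2_089. EE501F2_093, at 2868 ± 527 CPM, was above both parents by its mean.

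In EE501F2_089 the leading models were g15210 (chromosome 11, 1359481 to 1361914, plus strand) and g1733 (chromosome 7, 39547744 to 39554418, plus strand). The plants of EE501F2_089 read 2.57, 1.58 and 1.61 CPM of g15210, against 22.7, 30.5 and 43.8 CPM in 80-1 and 76.0, 88.0 and 93.9 CPM in M6, and those of EE501F2_500 also lay low at 3.52, 5.19 and 5.69 CPM. For g1733 they read 0.0756, 0.0367 and 0.0646 CPM, which is 5 counts in all, against 5.49, 6.11 and 6.02 CPM in 80-1 and 9.37 to 19.8 CPM in the other F2 plants. This second model was low in EE501F2_089 alone, with a ratio of 99.2 (95% counting interval 42.2 to 307) between 80-1 and that line.

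Among the susceptible lines, EE501F2_500 had the lowest level of g10346 (chromosome 11, 5544242 to 5549246, minus strand), with 0.0400, 0.0390 and 0.0744 CPM, or 4 counts, against 7.30, 6.45 and 7.93 CPM in 80-1. EE501F2_089 was near it at 0.227, 0.0734 and 0.323 CPM, and 1 plant of EE501F2_641 was at 0.112 CPM beside sister plants at 7.01 and 4.02 CPM. A near-absent level was therefore seen in lines of both classes, and within EE501F2_641 it was seen in 1 of 3 plants. The other leading model of EE501F2_500, g9590 (chromosome 1, 59114376 to 59115729, plus strand), was low in that line alone: its plants read 1.20, 1.68 and 1.86 CPM, and every other plant of the series read 17.4 to 62.5 CPM.

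The leading models of EE501F2_093 were low in susceptible lines. EE501F2_093 read 0.817, 0.576 and 0.754 CPM of g34804 (chromosome 2, 21097262 to 21100098), and EE501F2_500 0.681, 0.858 and 1.08 CPM, against 9.88 ± 2.41 CPM in M6 and 11.4 ± 0.695 CPM in 80-1. For g23688 (chromosome 9, 28937851 to 28939222), EE501F2_093 read 41.4, 17.9 and 32.6 CPM and the parents 177 to 465 CPM. By line means neither was low in a resistant line, and 1 plant of EE501F2_641 was at 79.9 CPM of g23688 beside sister plants at 760 and 1076 CPM. The third model lowest in EE501F2_093, novel_gene_187_57a387f8 on chromosome 7, had 4 counts there, and 80-1 exceeded it by a ratio of 198 (95% counting interval 76.6 to 731). It overlaps g22082 on the other strand, and its reads cannot be told apart from those of that model.

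EE501F2_641 read 0.705, 0.720 and 0.746 CPM of g29051 (chromosome 7, 26865655 to 26868812), against 11.1 ± 2.63 CPM in 80-1 and 13.9 ± 1.69 CPM in M6. EE501F2_516 had 41.2 ± 7.86 CPM of the same model, so that 2 resistant lines stood on opposite sides of both parents. Of g4153 (chromosome 1, 52188780 to 52190378), EE501F2_641 read 6.58, 0.805 and 1.19 CPM, against 37.7 ± 4.11 CPM in 80-1.

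**Figure D2:**
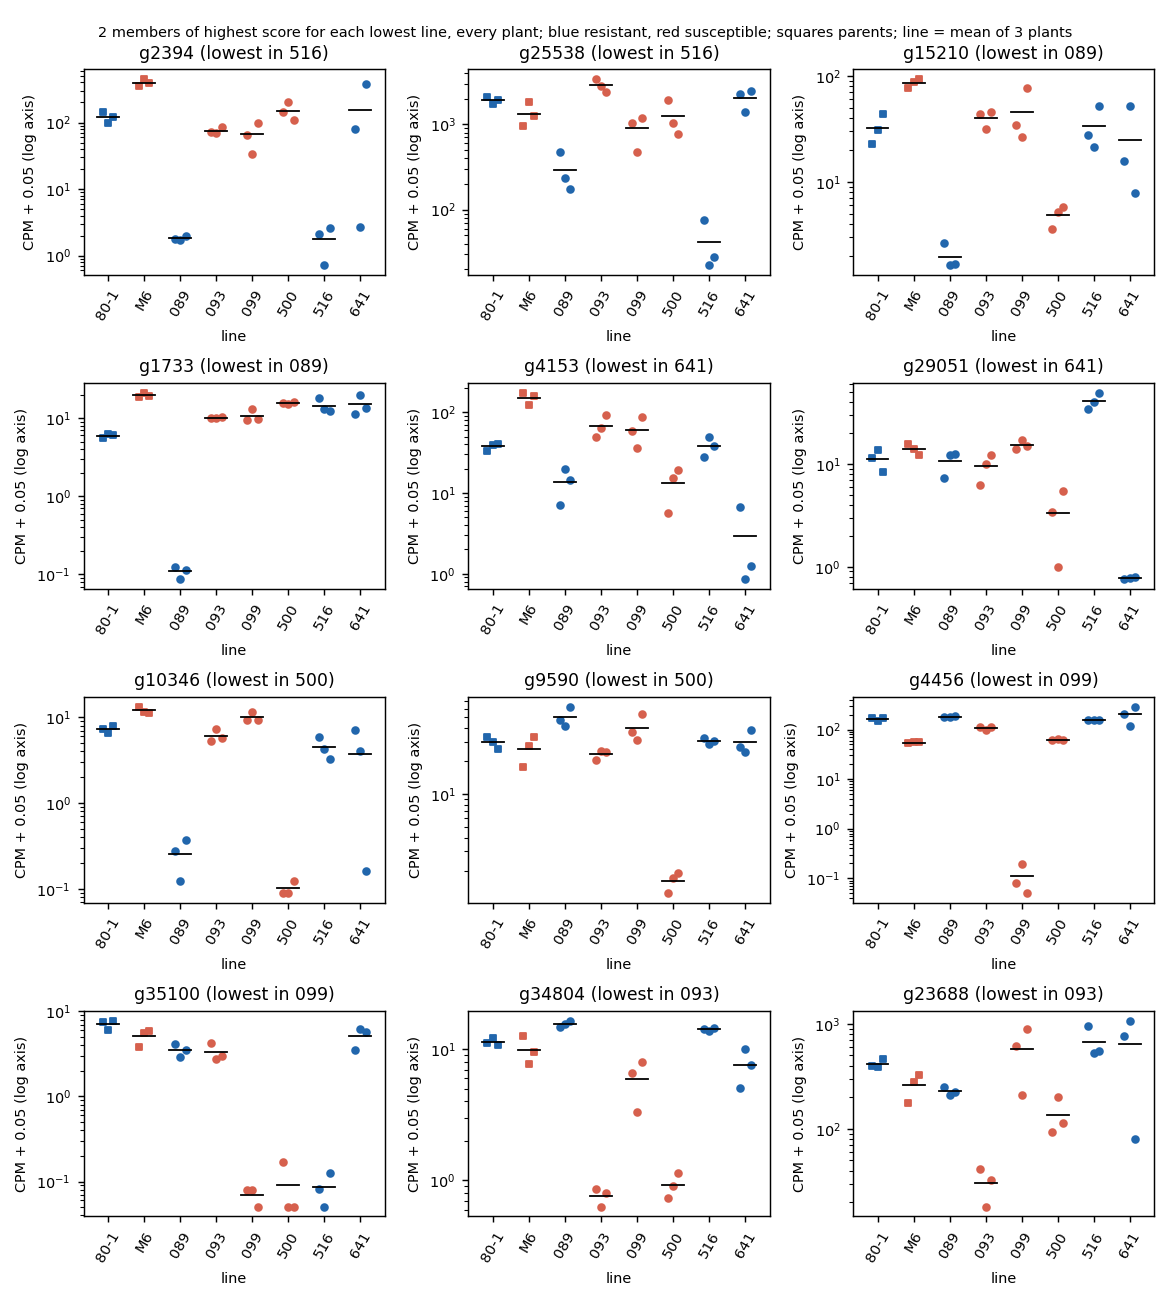
Every plant's level (CPM plus 0.05, log axis) of the 2 models with the highest score for each lowest line, by line; squares are parents, circles F2 plants, blue resistant, red susceptible, and bars are means of 3 plants. In g4456 and g1733 1 line lies far below all others, in g35100 3 lines lie near the floor, and in g2394 the 3 plants of EE501F2_641 are spread from 2.67 to 385 CPM.

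Few of the models were without a transcript altogether. The lowest line was under 0.5 CPM for 28 of the 100, of which 13 were lowest in EE501F2_516 and 15 in another line. At most 3 counts were read in the lowest line for 5 models, 4 of them in EE501F2_099 (g35100, g29752, g16453 and g33239) and 1 in EE501F2_516. The last was g27707 (chromosome 9, 4071594 to 4072596, plus strand), with 0 counts in EE501F2_516 against 4.64 ± 0.552 CPM in 80-1 and 8.54 ± 2.13 CPM in M6, at least 128-fold lower when the 3 counts that a count of 0 allows are taken over the line. Models outside the 28 read 0.5 CPM or more in their lowest line. In leaf tissue as a whole, fewer cells of a type and less RNA per cell cannot be told apart.

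The plants of the lowest line were also set against the parental plants one by one, as a description. For all 100 models, the 3 plants of the lowest line lay below all 6 parental plants (32.2% of all models), which the size of the chosen shortfalls largely fixes. The plants of the lowest line were still unequal: the median range between them was 1.01 on the log2 scale for the 66 models of EE501F2_516, 1.18 for the 9 of EE501F2_641, and 0.08 to 0.51 in the other lines. In EE501F2_516 replicate 1 was the highest plant for 49 of the 66, with a median score of 2.90, against 3.73 and 3.44 in the other plants. How often replicate 1 was highest over all models was not counted, so this is not read as particular to the list.

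To measure the shortfall in plants that the choice had not used, 100 models were chosen again from replicates 1 and 2 of every line, 83 of which are also in the list, and replicate 3 was read. In replicate 3, 95 of these 100 scored at least 2 in the line chosen, against 3.38% of the 15272 models treated in the same way. Their median score was 3.31 in the plants left out and 3.14 in the plants used. The counts by line were 59 of 61 in EE501F2_516, 13 of 14 in EE501F2_500, 8 of 8 in EE501F2_089, 7 of 8 in EE501F2_641, 5 of 6 in EE501F2_099 and 3 of 3 in EE501F2_093. The sole model under 1 was g29807 in EE501F2_099, which scored 3.03 in the plants used and 0.21 in the plant left out. With replicate 1 left out the count was 78 (1.91% of all models) and the median fell from 3.45 in the plants used to 2.63 in those left out. With replicate 2 left out the count was 87 (3.74%), the medians were 3.13 and 3.21, and the lowest score was -0.84, with 98 models above 0. Plants of a line share a genotype by the labels, and were grown together, so this measures repeatability within a line and not across genotypes.

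**Figure D3:**
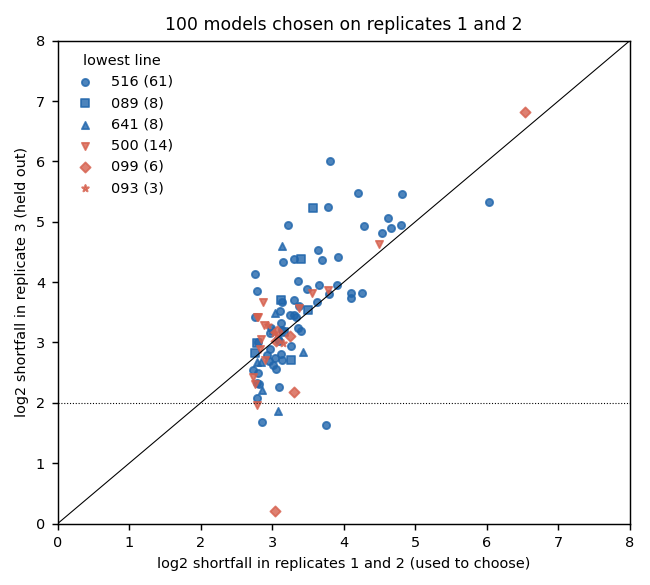
Score of 100 models chosen on replicates 1 and 2, in those plants (x axis, log2) and in replicate 3 (y axis, log2), by lowest line; the solid line marks equal scores and the dotted line a score of 2. Of the points, 95 lie at or above 2, and the lowest, g29807, is at 0.21.

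The plants of EE501F2_641 differed in many of these models. At least 4-fold between its highest and lowest plant was seen in 29 of the 100 (4.19% of all models), against 21 in EE501F2_099 (1.41%), 10 in EE501F2_500 (1.18%), 9 in EE501F2_516 (1.09%), 3 in EE501F2_089 (0.189%) and 0 in EE501F2_093 (0.0782%). Of the 29, the highest plant was replicate 1 in 16, replicate 2 in 5 and replicate 3 in 8. In 4 models, 1 plant of EE501F2_641 was low while another was at or above the lower parent. Neither this count nor that of the highest plants was taken over all models. Whether its plants share a genotype was not tested.

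**Figure D4:**
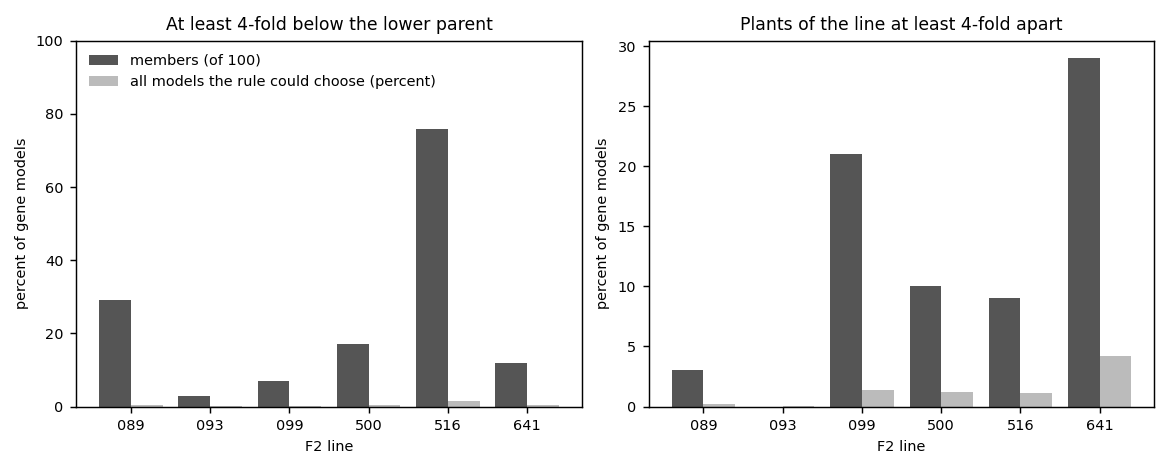
Left, percent of models at least 4-fold below the lower parent in each F2 line. Right, percent whose plants within a line were at least 4-fold apart. Both folds are taken with 0.5 CPM added. Dark bars are the 100 chosen models and pale bars all 15352 models the rule could choose with a lower parent of at least 1 CPM. EE501F2_516 leads on the left with 76 of 100, and EE501F2_641 leads on the right with 29 of 100.

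The parents were compared to see whether the models also differed between the original genotypes. The rule used the lower of both parental means, so the counts are given as a description and nothing is read from them. The lower parent was 80-1 for 53 models and M6 for 47, and the higher parent exceeded it by a median of 1.70-fold (1.01 to 67.3), with 64 models under 2-fold and 13 at 4-fold or more. In edgeR's quasi-likelihood test over all 21028 models tested, 20 of the 100 were higher in 80-1 (18.6% of all models) and 7 were higher in M6 (18.7% of all models). With the 6 parental libraries fitted alone, 38 were higher in 80-1 (24.1% of all models) and 24 were higher in M6 (24.4%). Without EE501F2_641, whose plants add to the shared estimate of the spread, 24 were higher in 80-1 (21.1%) and 17 were higher in M6 (22.7%).

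The smallest p-value toward 80-1 was that of g25594 (chromosome 4, 33526881 to 33530910, plus strand), which is also a model lost in 2 F2 lines. It read 79.3, 64.3 and 70.4 CPM in 80-1 and 16.5, 17.5 and 17.5 CPM in M6, a log2 difference of 2.37 ± 0.25 (SE, edgeR adjusted p = 3.46e-07). EE501F2_500 read 0.320, 0.234 and 0.223 CPM and EE501F2_516 0.0977, 0.470 and 0.115 CPM. The other 4 F2 lines lay between the parents by their means, with plants at 25.4 to 67.7 CPM. The next was g4456 (log2 difference 1.90 ± 0.23, edgeR adjusted p = 2.16e-06), whose EE501F2_099 plants are given above. Toward M6, the smallest were g1733 (log2 difference -1.42 ± 0.20, edgeR adjusted p = 1.14e-05) and g26226. The latter (chromosome 3, 37823871 to 37825273, plus strand) read 7.45 ± 2.40 CPM in 80-1 and 72.6 ± 27.5 CPM in M6 (log2 difference -2.97 ± 0.45, edgeR adjusted p = 3.17e-05), with 0.615 ± 0.308 CPM in EE501F2_641 and 0.817 ± 0.402 CPM in EE501F2_500.

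Resistant and susceptible F2 lines were compared with the line as the replicate, 3 against 3. No model of the list was called in either direction by edgeR's quasi-likelihood test over 21184 models, where 0.0142% of all models were called higher and 0% lower in the resistant lines. At an unadjusted p under 0.05 there were 18 of the 100 (7.40% of all models), 17 of them lower and 1 higher in the resistant lines, and without EE501F2_641 there were 37 (12.6% of all models). The split by direction at this unadjusted p was not counted over all models. DESeq2 called 12 lower in the resistant lines (0.878% of all models) and 0 higher. Of all 26089 models in that fit, 229 were called lower and 297 higher. EE501F2_516 and EE501F2_089 are resistant and account for most low values, so a lower mean in the resistant class follows in part from the choice of the models.

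The model with the smallest p in that comparison was g18480 (chromosome 5, 4470884 to 4473938, minus strand). Its plants read 4.43, 7.85 and 3.84 CPM in EE501F2_089, 4.04, 5.79 and 4.22 CPM in EE501F2_516 and 27.6, 10.8 and 3.69 CPM in EE501F2_641. Every susceptible F2 plant was higher, at 51.5 to 132 CPM, as were the plants of 80-1 at 48.1 to 53.4 CPM and of M6 at 111 to 134 CPM. The log2 difference of resistant to susceptible lines was -3.12 ± 0.59 (SE) and did not pass the test (edgeR adjusted p = 0.271). The resistant parent was on the side of the susceptible lines for this model. The choice largely fixes this, since the rule took models whose lower parent was far above the lowest F2 line. In the other direction, g34804 was higher in the resistant lines by 2.38 ± 0.84 on the log2 scale and did not pass either (edgeR adjusted p = 0.573).

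Counted without a test, all 3 resistant lines lay below all 3 susceptible lines by their means for 24 models (7.00% of all models) and above them for 3 (3.22%). Without EE501F2_641 the 2 remaining resistant lines lay below for 47 of the same models (13.6% of all models that could be chosen without that line). Without EE501F2_516 they lay below for 27 (19.0%). With the rule applied to the 5 lines other than EE501F2_516, 32 of the newly chosen 100 had both resistant lines below all susceptible lines (19.0% of all models). With EE501F2_641 left out in its place it was 52 (13.6%). The rule takes models with a very low F2 line, and in the list 66 were lowest in EE501F2_516, which is resistant. Shares above those of all models thus follow in part from the choice, and nothing is read from them.

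Members lay on all 12 chromosomes. Chromosome 4 held 15, which was 1.24% of the models there that could be chosen with a lower parent of at least 1 CPM, against 0.651% over all chromosomes and 0.185% on chromosome 11, with 2. They fell in 53 of 109 windows of 5 Mb and at most 5 shared a window, so the list was scattered. The models had a median length of 1402 bases and 3 exons, against 1698 bases and 6 exons over all such models, and 18.0% had a single exon against 11.1%.

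A stretch of chromosome 4 from 30 to 40 Mb, picked after its values were seen, held 8 members, 1.45% of the models there. Of these, 7 were low in EE501F2_516, 4 in EE501F2_500, 3 in EE501F2_099, 1 each in EE501F2_089 and EE501F2_641 and 0 in EE501F2_093. It holds g25594 and g35100, described above, and g36610 (35753860 to 35756517), which was 21.1-fold below M6 in EE501F2_516 by its mean and read 9.71 ± 7.10 CPM in EE501F2_099 and 15.5 ± 3.19 CPM in EE501F2_500, against 44.3 ± 9.24 CPM in M6 and 156 ± 8.95 CPM in 80-1. At 35 to 40 Mb these 3 lines also had the lowest parental state, an index that is 0 at the M6 level and 1 at the 80-1 level, taken as a median over models that differ between the parents. It was -0.01 in EE501F2_500, 0.063 in EE501F2_099 and 0.106 in EE501F2_516, and 0.5 to 0.673 in the other F2 lines. At 30 to 35 Mb, which holds g25594, it was -0.062 in EE501F2_516, 0.048 in EE501F2_500 and 0.094 in EE501F2_099, but also 0.19 in EE501F2_093, which had no low member here, and EE501F2_099 read 35.7 CPM of g25594. By the rule, which chose on the lower parent, these models were read in M6 as well, and the part of the state in the levels was not tested.

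Over all models of the list with an index in their window (98), the median state of the lowest line was 0.524. It was on the M6 side (0.25 or less) for 22.4%, on the 80-1 side (0.75 or more) for 23.5% and between for 54.1%, while the shares over all models were 14.4%, 15.3% and 70.3%. For the members lowest in EE501F2_516 they were 18.5%, 26.2% and 55.4%, and over all models the windows of that line gave 21.5%, 18.5% and 59.9%. For the members lowest in another line they were 30.3%, 18.2% and 51.5%, and shares over all models were not taken for those lines alone. Low levels were thus seen beside M6-like, 80-1-like and intermediate windows, and nothing is read from the differences in shares.

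Some models were low together with a close neighbour. There were 7 pairs with at most 100 kb between members, 14 models in all, and 5 of the pairs had the same lowest line. The models g28129 (199291 to 199943) and g28130 (220758 to 224619) lie 20.8 kb apart on chromosome 10. EE501F2_516 read 1.38 ± 0.116 CPM of g28129 and 23.9, 23.2 and 21.1 CPM of g28130, against 45.9 ± 3.40 and 668 ± 4.73 CPM in 80-1. EE501F2_089 was the second lowest line for both, at 4.56 ± 1.33 and 94.0 ± 18.5 CPM. The plants of EE501F2_641 again differed, with 34.3, 2.84 and 3.32 CPM of g28129 and 537, 144 and 72.6 CPM of g28130, so the order of lines, and even of plants at the top, was shared by both models.

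The pair g9590 and g9591 on chromosome 1, 4.86 kb apart with no model between, was low in EE501F2_500: g9591 read 0.194 ± 0.0430 CPM there and 4.48 ± 0.680 CPM in 80-1. The pair g1063 and g1064 on chromosome 2 lies 4.69 kb apart, and both are 798 bases long. In EE501F2_516 g1063 and g1064 read 4.87 ± 4.34 and 26.5 ± 26.1 CPM, against 143 ± 28.3 CPM in 80-1 and 290 ± 39.6 CPM in M6, each the lower parent. Whether the 2 are near-identical copies, between which counting could split reads, was not tested, and their separate values are uncertain.

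Neighbours that are not in the list were read as well, since the rule did not use them. Within 50 kb of a member there were 550 such models with a lower parent of at least 1 CPM, and in that member's lowest line their median score was -0.37, against -0.46 over all non-member models in the same lines. The typical neighbour thus stayed at its usual level. A minority did not: 27 (4.91%) were low, against 1.17% over all non-members. The share was 5.38% against 1.54% for members lowest in EE501F2_516 and 3.93% against 0.411% for those lowest in other lines, and within 200 kb it was 2.48% against 1.11%.

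The 4 neighbours with the largest shortfall were each low in at least the lowest line of the member beside them, and 3 were low in lines where that member was not. The model g28128 (chromosome 10, 198614 to 199267) ends 24 bases before g28129 and read 1.37, 0.626 and 0.844 CPM in EE501F2_516, against 33.5 ± 13.8 CPM in 80-1. The model g35101 (chromosome 4, 35269496 to 35271511), 2.68 kb from g35100, had 11, 19 and 9 counts in EE501F2_099, EE501F2_500 and EE501F2_516 and read 13.3 ± 3.98 CPM in 80-1 and 15.8 ± 1.80 CPM in M6. The low lines of g35101 were the 3 of g35100, while g28128 was low in EE501F2_516 and EE501F2_089, as g28129 was, and also in EE501F2_641 (score 2.36, against 1.73 for g28129).

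Of g27706 (chromosome 9, 4063372 to 4064800), beside g27707, EE501F2_516 read 3.89 ± 2.88 CPM against 136 ± 10.6 CPM in 80-1. Of g700 (chromosome 1, 65658584 to 65659726), beside g697, it read 0.261, 0 and 0.0384 CPM against 18.1 ± 7.25 CPM in M6. The model g27706 was also low in EE501F2_089 (score 2.44) and EE501F2_641 (2.02), where g27707 scored 1.67 and 1.59, and g700 was low in EE501F2_089 (3.33), where g697 scored 0.71. None of these 4 could be chosen, because every F2 line was below the lower parent: the highest F2 means were 31.7 CPM of g28128, 8.41 CPM of g35101, 129 CPM of g27706 and 13.9 CPM of g700.

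**Figure D5:**
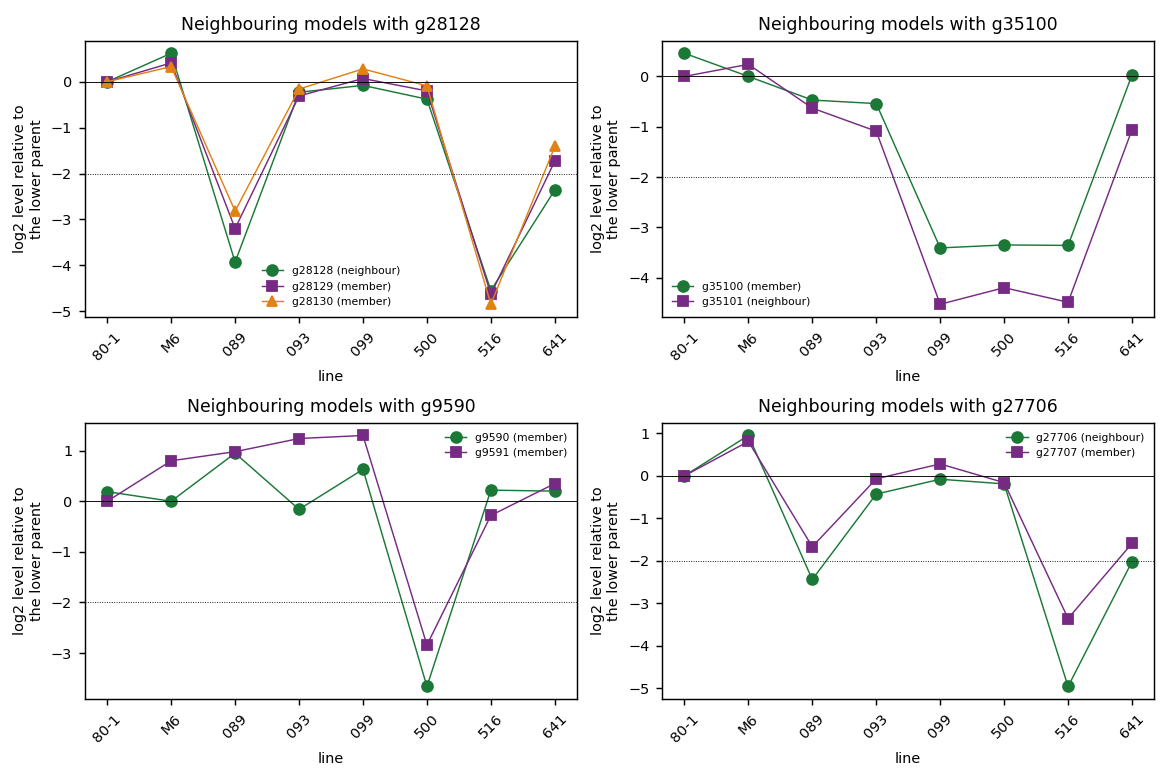
Mean log2 level of neighbouring models in each line relative to the lower parent (CPM plus 0.5, mean of 3 plants), for 4 groups of neighbours; the dotted line at -2 marks 4-fold below. The 3 models of chromosome 10 (top left) are low in EE501F2_516 and EE501F2_089, and g35100 with g35101 (top right) is low in EE501F2_099, EE501F2_500 and EE501F2_516.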

How the data were processed

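Leaf RNA from 24 plants of 8 lines (3 plants each) was sequenced. Raw counts for each gene model, not normalised, come from a single table that the authors deposited, laid out as featureCounts writes it per the file headers. Per the submitters' processing notes, Trimmomatic 0.35, STAR 2.6.0, Subread, featureCounts 1.5.3 and DESeq2 were used, with no role given. The table's other unit, model length in bases, was deposited by the authors and entered no test. The sources used here do not give the genome build, annotation, strand setting or handling of multi-mapping reads, so reads of near-identical copies and antisense neighbours could not be separated: 1 member, novel_gene_187_57a387f8, overlaps g22082 on the other strand. Coordinates are counted from 1, outermost exon ends. Unplaced models (7954) had no count.

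CPM were computed from column sums, without further scaling. Tests used R 4.3.3 and edgeR 4.0.16 on counts, with filterByExpr, TMM and Benjamini-Hochberg adjustment over all models tested, called at 0.05. The parents were tested in a fit of all 24 libraries with 1 mean per line (16 residual degrees of freedom), and the F2 classes on counts summed per line (4 residual degrees of freedom). Standard errors are approximate, the absolute estimate over the square root of F. Each parent is 1 genotype, so its p-values speak of these plants, and their spread may be technical. DESeq2 1.42.0 was an alternative. The tests were first run on simulated data. Intervals of ratios are 95% and cover counting error only, as do floors. The parental state index used 2436 non-member models called between the parents and 4-fold or more apart (2 on the log2 scale), in 96 windows of 5 Mb with at least 5 of them.

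The members, lists and tests were chosen with earlier results of these data known. Named are the 2 members of highest score per lowest line, the 2 of smallest p per direction in the parents and the 1 in the F2 classes, those at the edge of the list, the members of the leading group within 100 kb, and the 4 neighbours of largest shortfall; others were named after their values were seen. Gene lists and tissue markers could not be used without gene names, and no sequence is held in the sources used here.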

Additional observations from a re-analysis of the deposited data

How the results depend on the processing

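Under other settings 100 of 100 chosen models became 62 with a pseudocount of 0.1 and 63 with 2, 49 without EE501F2_516, 80 with TMM scaling, 80 with line medians, 82 to 95 without another F2 line, and 75 to 83 without a replicate. TMM scaling shifts the log2 level by the library factor, whose mean was 0.26 in EE501F2_516, -0.26 in EE501F2_641, -0.22 in 80-1 and 0.09 in M6. Named scores gave 76 alternative values, all at 2 or more. Between parents, the 20 models higher in 80-1 and the 7 higher in M6 became 38 and 24 with the 6 parental libraries fitted alone. They became 24 and 17 without EE501F2_641 (added after seeing the data), and 14 to 22 and 3 to 10 without a replicate. Over all 21078 to 21203 models tested without a replicate, 2441 to 3136 were higher in 80-1 and 2428 to 2953 in M6. The F2 class calls, 0 in each direction, became 12 lower in the resistant lines with DESeq2 (0.878% of all models). Without EE501F2_641, 2 were lower (8 of all 21557 models). Without a replicate, 0 to 2 were lower (2 without replicate 1, with 3 of all 20548 models). On plants, which leaves out the spread between lines, the class calls became 11 higher and 71 lower. Over all 21028 models tested they were 3346 higher and 3661 lower. Replicate numbers did not pair the plants: the 84 correlations of deviations between libraries of 1 number had a median of 0.0128 (-0.38 to 0.296), and 6 of 24 libraries correlated best with their own number. With the replicate block, the parental calls were 20 and 8 (3861 and 3884 over all 21028 models). The plant-level F2 calls were 11 and 72 (3234 and 3629 over all models). Low in 1 line were 23 models at a score of 1 in place of 60, and 31 in place of 14 had another member within 500 kb. In alternatives chosen after seeing the data, 16 models in place of 40 were low in 2 or more lines under the rule without EE501F2_516. Resistant lines all below susceptible lines were seen for 52 (rule) and 47 (same models) without EE501F2_641 (13.6% of all models), in place of 24 (7.00%). The causes were not tested. With 3 lines a class, and lines of 1 individual, differences between classes rest on few genotypes.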
